A study of Rattus norvegicus with 4 samples.

Results

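The genes of protein synthesis, folding and breakdown were examined in the liver of rats 24 h after α-naphthylisothiocyanate (ANIT), a toxicant that injures bile ducts and causes cholestasis. They were chosen by symbol: every array feature with a single gene symbol beginning with Rpl, Rps, Eif, Eef, Psm, Hsp or Ube2 was taken, and the kinases named Rps6k or Eif2ak and the names holding -ps were left out. This gave 27 of the 958 genes on the array that carried a single symbol, measured by 47 of 1432 such features. They fell into 9 ribosomal protein genes, 6 translation factor genes, 4 heat shock protein genes (the chaperones) and 8 genes of the ubiquitin-proteasome system. The symbol match also took in Eef2k, a kinase that inhibits elongation factor 2 and is not itself a translation factor.

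Male Sprague-Dawley rats of 250 to 300 g, with no age given, received a single intraperitoneal injection, either of ANIT at 75 mg/kg in olive oil or of the same volume of olive oil alone. Total RNA from the right lateral liver lobe of 3 rats per condition was mixed, so that each condition was 1 RNA pool and the spread between animals is unknown. Each of 4 spotted cDNA arrays received both pools. On arrays 1 and 3 the ANIT pool carried the dye Cy5 and the olive oil pool Cy3, and on arrays 2 and 4 the dyes were swapped. Each value below is a log2 ratio of the ANIT pool to the olive oil pool, and each SD is over the 4 hybridisations. No p-value is given, because 4 arrays of the same 2 pools test the hybridisation and not the treatment. The direction of the ratio is likely rather than stated and follows the order of the channels in the labels. The opposite direction would turn every sign below. The logarithm is taken as base 2, which no label states, and folds would be larger than printed if it were natural. In liver RNA, fewer cells of a type and less RNA per cell cannot be told apart.

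Ribosomes are built from RNA and a large set of ribosomal proteins, which belong to either the large (Rpl) or the small (Rps) subunit. Initiation factors bring the first transfer RNA and the messenger to the ribosome, and elongation factors drive the chain onward. Chaperones fold the product, and the ubiquitin conjugating enzymes (Ube2) help to mark proteins that the proteasome (Psm) then degrades. A hepatocyte exports large amounts of plasma protein and runs all these systems at a high rate.

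A gene was called at 2-fold when its mean passed that limit and no array had the opposite sign. None of the 27 genes was called in either direction, against 0.626% (higher) and 3.55% (lower) of all 958 genes. At 1.5-fold there was again none, against 2.09% and 8.35%. At a smaller limit, a mean log2 ratio of at least 0.32 in size with 1 sign throughout, 5 of the 27 genes were higher in the ANIT pool, against 6.26% of all genes. They were Eif2b4, Rpl6, Psmd2, Psmd3 and Ube2b, and without array 1 they were 3, namely Eif2b4, Rpl6 and Psmd2. None of the 27 was lower by this small limit, against 15% of all genes (144 of 958). Whatever their size, the ratios of 6 genes were above 0 on every array and those of 2 genes below 0, against 9.08% and 20.3% of all genes. The median over the 27 genes was -0.020, with a range from -0.43 to 0.42, and the median over all genes was -0.24. Of the 27 genes, 21 (77.8%) lay above the median of all genes. With each array centred on its median, 6 of 27 were higher by the small limit (all genes 7.41%) and 0 lower (all genes 10%), and Hspa9, Psmb7 and Rpl3 took the places of Psmd2 and Psmd3. The count of genes past the small limit also rested on the use of both dye orientations, in the 27 genes as over the array. Arrays 1 and 3 alone gave 4 higher and 13 lower genes, against 6.05% and 69.5% of all genes. At 2-fold they gave 0 higher and 5 lower genes, against 0.626% and 30.6%. Arrays 2 and 4 alone gave 14 higher and 0 lower genes at the small limit, against 46.6% and 12.3% of all genes, so that the share of higher genes there (51.9%) was near that of the array.

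**Figure D1:**
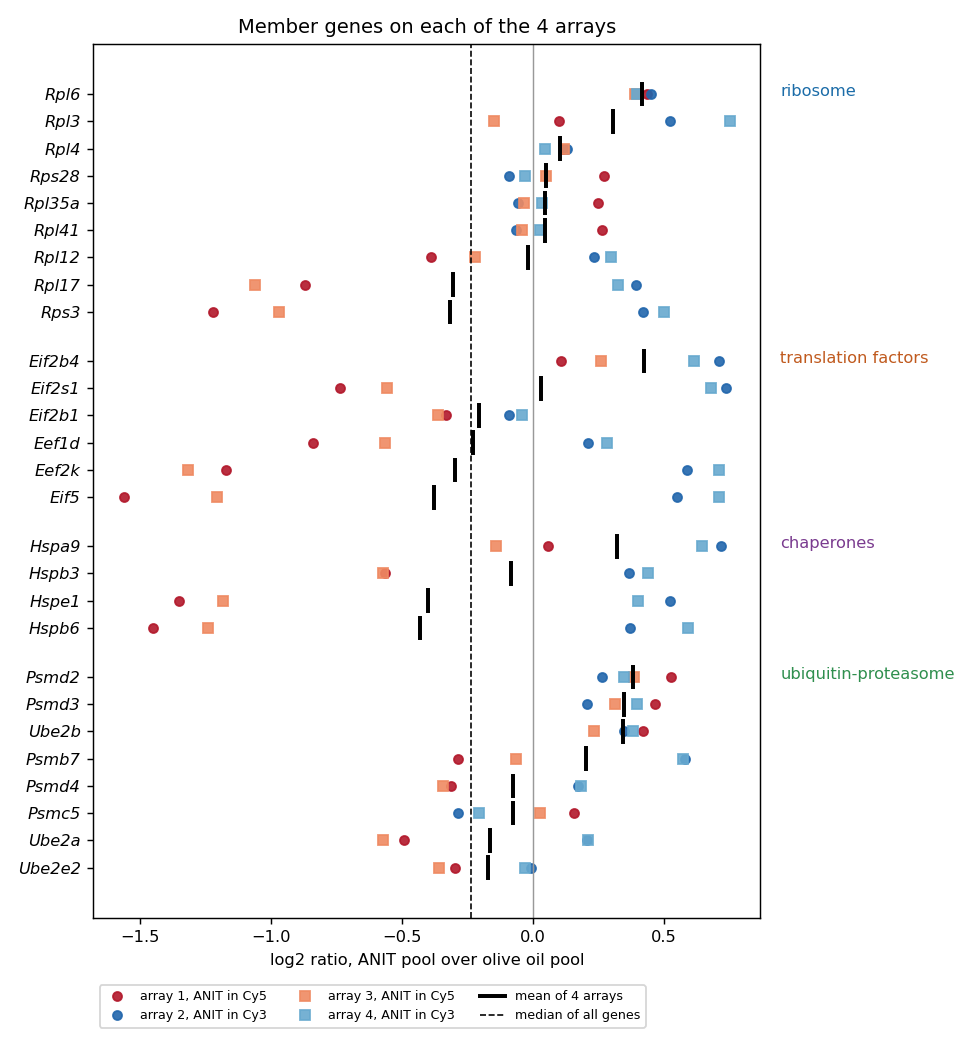
Log2 ratio of the ANIT pool to the olive oil pool for each of the 27 genes, by class, with a point for each array, coloured by dye orientation, and a bar for the mean of 4 arrays. The dashed line is the median of all genes, -0.24. For Rpl6, Psmd2, Psmd3 and Ube2b all 4 points lie close together above 0, whereas for Eif5, Hspe1 and Hspb6 the points of the 2 orientations lie on opposite sides of 0.

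In the mean over the 4 arrays, the class medians lay at 2 levels. The ribosomal protein genes had a median of 0.047 over 9 genes and the ubiquitin-proteasome genes 0.063 over 8 genes. The translation factors had a median of -0.22 over 6 genes and the chaperones -0.24 over 4 genes, close to the median of all genes. The ribosomal median exceeded that of the translation factors by 0.27 and that of the chaperones by 0.29. The ubiquitin-proteasome median exceeded that of the translation factors by 0.28 and that of the chaperones by 0.31.

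These 4 differences did not hold in both dye orientations. On arrays 1 and 3, with ANIT in Cy5, the ribosomal median exceeded that of the translation factors by 0.90 and 0.52, while on arrays 2 and 4 the difference was -0.34 and -0.35. Against the chaperones the ribosomal difference was 1.07 and 0.84 on arrays 1 and 3 and -0.22 and -0.21 on arrays 2 and 4. The chaperone median minus the ubiquitin-proteasome median was likewise -0.89 and -0.86 on arrays 1 and 3 but 0.24 on both arrays 2 and 4. Each of these differences was therefore smaller than its SD over the arrays (0.63, 0.68 and 0.64). That SD holds the shift between orientations, so it does not measure the error of the balanced mean. With each array left out the differences ran from 0.18 to 0.34, 0.22 to 0.37 and -0.31 to -0.29. These ranges still average orientations of opposite sign. The ribosomal and the ubiquitin-proteasome medians differed by -0.016 ± 0.090, and those of the translation factors and the chaperones by 0.025 ± 0.091, also within the spread over arrays. Without dye-shifted genes (defined in the next paragraph) the ribosomal minus the chaperone median was -0.069 and the chaperone minus the ubiquitin-proteasome median 0.056. Both thus turned sign, but the chaperone median of 0.12 then rested on Hspa9 and Hspb3 alone. Without dye-shifted features the ribosomal minus the translation factor median was -0.057 and the ribosomal minus the chaperone median -0.22. The chaperone minus the ubiquitin-proteasome median was 0.055, with Hspa9 and Hspb3 again the only chaperones. Leaving out dye-shifted features takes out mainly features with means below 0, so these turns set no order of the classes. On the single arrays, however, the translation factor median was above the chaperone median by 0.12 to 0.32.

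The classes differed more in how far they followed the dye than in their means. The dye contrast, defined as the mean of arrays 1 and 3 minus the mean of arrays 2 and 4, divided by 2, had a median of -0.39 over all genes. It was -0.0051 for the ribosomal protein genes and -0.087 for the ubiquitin-proteasome genes, but -0.58 for the translation factors and -0.68 for the chaperones. Genes with a dye contrast of -0.5 or below are called dye-shifted here. They made up 2 of 9 ribosomal, 3 of 6 translation factor, 2 of 4 chaperone and 0 of 8 ubiquitin-proteasome genes, against 40.1% of all genes. Array medians over all features ran from -0.68 to 0.35 by orientation, and the part of the dye in the class differences was not tested.

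**Figure D2:**
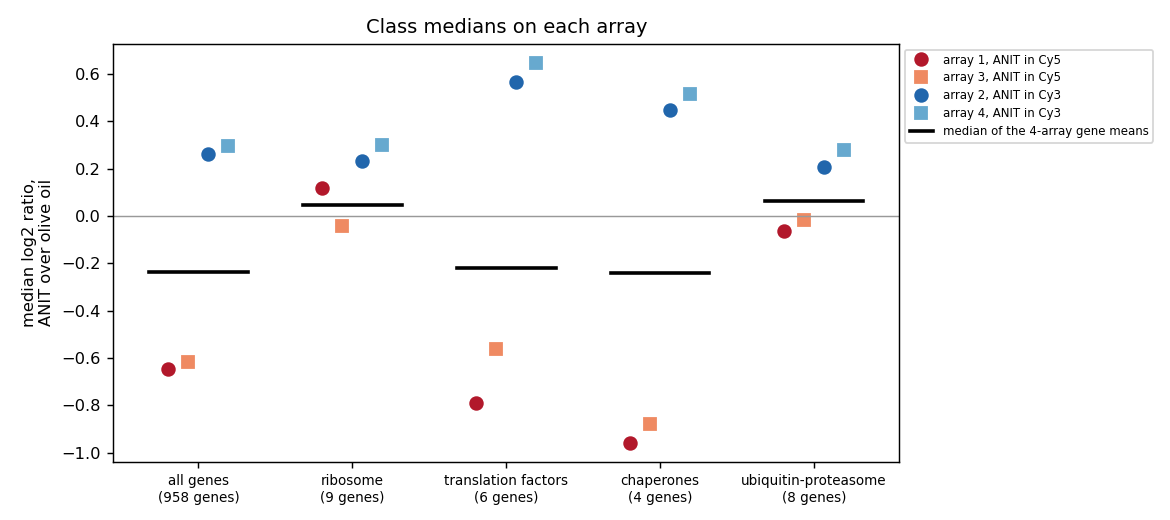
Median log2 ratio (ANIT over olive oil) of all genes and of the 4 classes on each array, with a bar for the median of the 4-array gene means. The ribosomal and ubiquitin-proteasome medians lay between -0.065 and 0.30 on all 4 arrays, while those of the translation factors and chaperones ran from -0.96 with ANIT in Cy5 to 0.65 with ANIT in Cy3.

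The ribosomal class held 7 large-subunit and 2 small-subunit genes. Ribosomal protein messengers of mammals are known for starting in an unbroken run of pyrimidines (C and T), which lets the cell control their translation together. The starts are shown as background. Genes known for such starts were chosen by symbol, so a high share among them is no result on ANIT. In RefSeq promoter windows of the rat build GRCr8, 6 of the 9 genes had a run of at least 5 pyrimidines that covered a base between 3 before and 5 after the annotated start, against 27.5% of 27457 promoters in the RefSeq table (1 per gene). For a run of at least 8 the numbers were 4 of 9 and 8.06%. The shorter run was not particular to this class. It was found in 2 of 4 chaperone, 3 of 8 ubiquitin-proteasome and 0 of 5 translation factor genes. A run of at least 8 was found in 0 genes of these other classes. The run did not have to begin at the annotated start, so it need not be where the messenger begins. In Rps28 it begins after the annotated start, and in Rpl4 most of it lies before. The windows below cover 15 bases before and 15 bases from the start on, written 5′ to 3′ on the gene's strand, with the run in capitals.
Rpl4 (chr8:73566462-73566491, plus strand): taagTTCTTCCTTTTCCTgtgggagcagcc
Rpl35a (chr11:81235007-81235036, minus strand): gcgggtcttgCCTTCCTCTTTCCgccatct
Rpl17 (chr18:70856261-70856290, plus strand): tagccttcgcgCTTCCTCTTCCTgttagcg
Rps28 (chr7:15311319-15311348, minus strand): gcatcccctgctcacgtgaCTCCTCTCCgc
Rpl12 (chr3:36661925-36661954, plus strand): ggagcaacatccgTCTTTTCggctttcggt
Rpl3 (chr7:113507976-113508005, minus strand): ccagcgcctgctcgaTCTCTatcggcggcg

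Rpl6, Rps3 and Rpl41 had runs of 2, 1 and 1 bases in the same window, which says only that these letters are not at the annotated start. The genes with the 4 longest runs, Rpl4, Rpl35a, Rpl17 and Rps28, had mean ratios of 0.10, 0.047, -0.30 and 0.050. Rpl17 lay near the lower end of the class range, which ran from -0.32 to 0.42, and the others lay near the class median of 0.047. A relation between run and ratio was not tested.

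Rpl6, a large-subunit protein, was the highest ribosomal gene and the one with the smallest spread. Its log2 ratios on arrays 1 to 4 were 0.44, 0.45, 0.39 and 0.40, a mean of 0.42 ± 0.030 or 1.34-fold. All 4 arrays were above 0 and the orientations gave nearly the same value (dye contrast -0.0051). Rpl6 ranked 41 from the highest among 958 genes.

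Rpl3 and Rpl4, large-subunit proteins that reach into the ribosome's catalytic centre and exit tunnel, gave different answers by feature. One Rpl3 feature had log2 ratios of 0.94, 0.57, 0.65 and 0.74 on arrays 1 to 4, a mean of 0.72 ± 0.16 or 1.65-fold. The other had -0.74, 0.48, -0.95 and 0.76, with a mean of -0.11 ± 0.86. The first was above 0 on every array and the second followed the dye (dye contrast -0.73). Averaged over both, Rpl3 stood at 0.31 ± 0.41 and missed the small limit on size and sign.

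Of the 3 Rpl4 features, a pair was higher and the other lower, and none was dye-shifted. The first had log2 ratios of 0.41, 0.72, 0.32 and 0.78 on arrays 1 to 4 (mean 0.56 ± 0.23) and the second 0.51, 0.59, 0.67 and 0.41 (0.54 ± 0.11). The third had -0.57, -0.91, -0.64 and -1.06, a mean of -0.79 ± 0.23 or 1.73-fold lower. The gap of 1.35 between the highest and the lowest feature was the widest among the 27 genes and several times the SD of each. The gene mean of 0.10 ± 0.039 therefore described none of the 3 features. With the median over the features of a gene in place of the mean, Rpl4 stood at 0.43 and passed the small limit, as did Hspa9 at 0.48. The higher genes were then 7 of 27, against 6.47% of all genes, and the lower ones 0, against 14.8%. RefSeq lists 8 other loci named after Rpl4, all annotated as pseudogenes, and the transcripts that each spot binds were not given in the sources used here.

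Rps28, Rpl35a and Rpl41, the latter a very short basic peptide, stayed near 0. Rps28, a small-subunit protein, had log2 ratios of 0.27, -0.091, 0.051 and -0.032 on arrays 1 to 4 (mean 0.050 ± 0.16). Rpl35a had 0.25, -0.056, -0.035 and 0.033 (0.047 ± 0.14), and Rpl41 had 0.26, -0.064, -0.041 and 0.028 (0.047 ± 0.15). In each of the 3 genes array 1 was the highest and the other arrays lay on both sides of 0. Rpl12, at the base of the stalk that binds translation factors, had -0.39, 0.23, -0.22 and 0.30 (mean -0.020 ± 0.34), with the orientations on opposite sides of 0.

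The lowest ribosomal genes were Rpl17 and Rps3, each measured by 1 dye-shifted feature. Rps3, which lies at the entry of the messenger into the small subunit, had log2 ratios of -1.22, 0.42, -0.97 and 0.50 on arrays 1 to 4 (mean -0.32 ± 0.91). Rpl17, near the tunnel exit, had -0.87, 0.39, -1.06 and 0.33 (-0.30 ± 0.77). Both changed sign with the orientation, and their means were smaller than their SD.

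The translation factor class was built around eukaryotic initiation factor 2 (eIF2), which carries the initiator transfer RNA, and eIF2B, the exchange factor that recharges it with GTP. Phosphorylation of eIF2 under stress blocks eIF2B and lowers protein synthesis. Eif2b4, the delta subunit of eIF2B, was the highest of all 27 genes. Its log2 ratios on arrays 1 to 4 were 0.11, 0.71, 0.26 and 0.61, a mean of 0.42 ± 0.29 or 1.34-fold. All arrays were above 0, with those of ANIT in Cy3 higher. Its features stood at 0.54 ± 0.19 and 0.31 ± 0.40, the latter with array 1 below 0.

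Eif2b1, the alpha subunit of the same complex, pointed the other way. Its log2 ratios were -0.33, -0.092, -0.36 and -0.042 on arrays 1 to 4, a mean of -0.21 ± 0.17. It was below 0 on all 4 arrays, but did not reach the small limit, and lay above the median of all genes by 0.029. Its 3 features had means from -0.31 to -0.029. A pair of these features carried the same clone accession and differed by 0.26, where 21 such pairs over the array differed by a median of 0.19 and at most 0.59. A gap of this size thus arose between spots listed under the same clone accession.

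Eif2s1, the alpha subunit of eIF2 and the target of the stress kinases, was measured by features that disagreed. One had log2 ratios of 0.38, 0.67, 0.35 and 0.73 on arrays 1 to 4 (mean 0.53 ± 0.20, 1.45-fold) and the other -1.85, 0.81, -1.46 and 0.62 (-0.47 ± 1.38). The first was above 0 throughout, and the second had the strongest dye contrast of the 47 features, -1.19. The gene mean was 0.031 ± 0.79.

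The remaining factors were below 0 on average and split by orientation. Eif5, which triggers GTP hydrolysis by eIF2, had -1.56, 0.55, -1.21 and 0.71 on arrays 1 to 4 (mean log2 ratio -0.38 ± 1.17). Eef2k, which stops elongation by phosphorylating elongation factor 2, had -1.17, 0.59, -1.32 and 0.71 (-0.30 ± 1.10). Eef1d, an exchange subunit for elongation factor 1, had -0.84, 0.21, -0.57 and 0.28 (-0.23 ± 0.56). In all 3 the orientations lay on opposite sides of 0, and the SD exceeded the mean.

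The chaperone class held the mitochondrial chaperones Hspa9 and Hspe1 and the small heat shock proteins Hspb3 and Hspb6, which are best known from muscle. Heat shock genes are known for a promoter element bound by heat shock factor. The core of this element was searched as GAANNTTC, which reads the same on both strands. It was found in the windows of 3 of the 4 genes, from 250 bases before to 50 bases from the start on, against 8.34% of the 27457 promoters. Outside this class Rpl12 and Eif5 also held it. A match is a string of letters and was not tested as a binding site. The matches are shown in capitals, 5′ to 3′ on the gene's strand, in GRCr8.
Hspa9 (chr18:26828465-26828492, minus strand): cagcaaacagGAAGTTTCtggtcaggca
Hspe1 (chr9:64084257-64084284, plus strand): ctcggttctaGAACCTTCcggaaggccc
Hspb6 (chr1:94934213-94934240, plus strand): agtaattattGAAGTTTCtaaataagga

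The 3 genes with the match did not share a ratio. Hspa9, a mitochondrial chaperone that pulls proteins through the inner membrane, was the highest chaperone. Its log2 ratios on arrays 1 to 4 were 0.059, 0.72, -0.14 and 0.65, a mean of 0.32 ± 0.43, just short of the small limit and with array 3 below 0. Behind this mean stood 3 features. The first had 0.59, 1.23, 0.62 and 0.84 (0.82 ± 0.30, 1.76-fold), the highest of the 47 features, and the second 0.58, 0.38, 0.23 and 0.55 (0.43 ± 0.16). Both were above 0 on all arrays, whereas the third followed the dye with -0.99, 0.55, -1.28 and 0.56 (-0.29 ± 0.98).

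Hspe1, the small partner of the mitochondrial chaperonin, had log2 ratios of -1.35, 0.52, -1.19 and 0.40 on arrays 1 to 4 (mean -0.40 ± 1.00). Hspb6 had -1.45, 0.37, -1.24 and 0.59 (-0.43 ± 1.06), the lowest mean of the 27 genes. Hspb3 had -0.57, 0.37, -0.57 and 0.44 (-0.083 ± 0.56). All 3 changed sign with the dye orientation, as did 60.1% of all genes in the same sense, so the arrays set no direction for them.

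The ubiquitin-proteasome class held 3 of the 5 genes past the small limit. Psmd2 and Psmd3 encode scaffold subunits of the base and the lid, respectively, of the regulatory particle that receives ubiquitin-tagged proteins. Psmd2 had log2 ratios of 0.53, 0.26, 0.39 and 0.35 on arrays 1 to 4, a mean of 0.38 ± 0.11 or 1.30-fold. Psmd3 had 0.47, 0.21, 0.31 and 0.40 (0.35 ± 0.11, 1.27-fold). All arrays were above 0 for both. Both Psmd2 features gave the same answer, 0.39 ± 0.15 and 0.37 ± 0.095.

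Ube2b, a conjugating enzyme that attaches ubiquitin to histones and other proteins, had log2 ratios of 0.42, 0.35, 0.23 and 0.38 on arrays 1 to 4 (mean 0.35 ± 0.081, 1.27-fold). Its features stood at 0.40 ± 0.079 and 0.29 ± 0.10, all above 0 on every array. The closely related Ube2a did not share this ratio, with -0.49, 0.21, -0.57 and 0.21 (-0.16 ± 0.43) and all 3 features below 0 on average. The difference between the paralogs was not tested, and on 2 of the 4 arrays Ube2a was above 0. Ube2e2 was below 0 on all 4 arrays without reaching the small limit (-0.30, -0.0062, -0.36 and -0.031, mean -0.17 ± 0.18).

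The other proteasome subunits did not pass. Psmb7, a catalytic subunit of the core particle, had log2 ratios of -0.28, 0.58, -0.064 and 0.57 on arrays 1 to 4 (mean 0.20 ± 0.44). Psmd4, a ubiquitin receptor, had -0.32, 0.17, -0.35 and 0.19 (-0.076 ± 0.29), with features at 0.23 ± 0.15 and, dye-shifted, at -0.38 ± 0.71. Psmc5, an unfolding ATPase, had 0.15, -0.29, 0.027 and -0.21 (-0.078 ± 0.20). Its 3 features split without being dye-shifted, as 1 stood at 0.33 ± 0.074, above 0 on all arrays, and the others at -0.26 ± 0.38 and -0.30 ± 0.18.

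Over the 47 features, 13 were higher by the small limit, against 7.47% of the 1432 features with a single symbol. Only the Rpl4 feature described above was lower, against 14.7%. The higher features were 4 of 14 ribosomal, 2 of 10 translation factor, 2 of 7 chaperone and 5 of 16 ubiquitin-proteasome features, and stood for 10 genes. At 1.5-fold the Hspa9 and Rpl3 features were higher (background 2.51%) and the Rpl4 feature lower (background 8.24%). Features of 1 gene share their transcript and are not independent. With dye-shifted features left out before averaging, a choice made after seeing the data, 8 of the 21 genes left were higher by the small limit, against 10.9% of 624 genes, and 0 lower, against 25.3%. Rpl3, Eif2s1 and Hspa9 were then added to the 5 genes named above, each after the loss of its lowest, dye-shifted feature. Low values with ANIT in Cy5 lower both the dye contrast and the mean. Leaving out dye-shifted features therefore takes out mainly low ones, and the counts after it are no support for higher genes.

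Of the 27 genes, 12 were measured by 1 feature, 10 by 2 and 5 by 3. Among the 15 genes with several features, 8 had features with means on opposite sides of 0, against 27.9% of 340 such genes on the array. The gap between the highest and lowest feature had a median of 0.30 in the 15 genes and of 0.20 over the 340. In 6 of the 15 genes some features were dye-shifted and some not, and the dye-shifted ones were lower in 5 (Rpl3, Eif2s1, Hspa9, Psmd4 and Ube2a). The exception was Hspb3, where they differed by 0.0070. Over the whole array the same held in 69.4% of 121 genes.

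**Figure D3:**
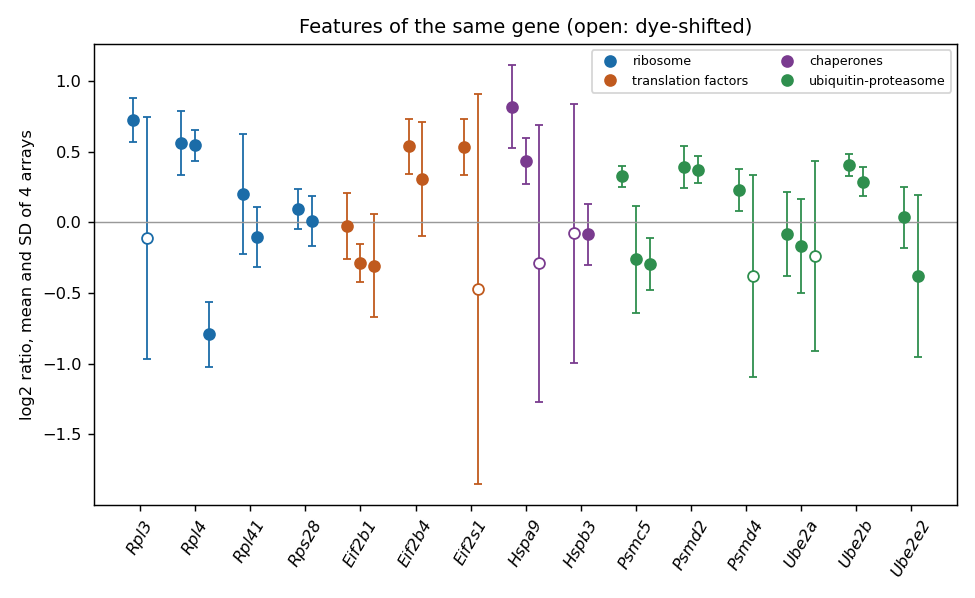
Mean log2 ratio (ANIT over olive oil) and SD over 4 arrays for each feature of the 15 genes with more than 1 feature, coloured by class, with dye-shifted features open. Features of Psmd2, Ube2b and Rps28 lie together, while those of Rpl4, Hspa9, Eif2s1 and Rpl3 lie far apart.

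All 12 dye-shifted features of the 27 genes had means below 0, between -0.47 and -0.079, and SDs of 0.67 or more. Of the other 35 features, 22 had means above 0, and the median over all 35 was 0.20. Over the whole array 97.0% of 837 dye-shifted features also had means below 0. Across the 47 features the mean ratio and the dye contrast correlated at r = 0.49, and across all 1936 features at r = 0.29. Both measures come from the same 4 arrays, and features are not independent replicates. Between the same features, arrays of one orientation correlated at 0.96 and 0.94, and arrays of opposite orientation between -0.11 and -0.0019.

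**Figure D4:**
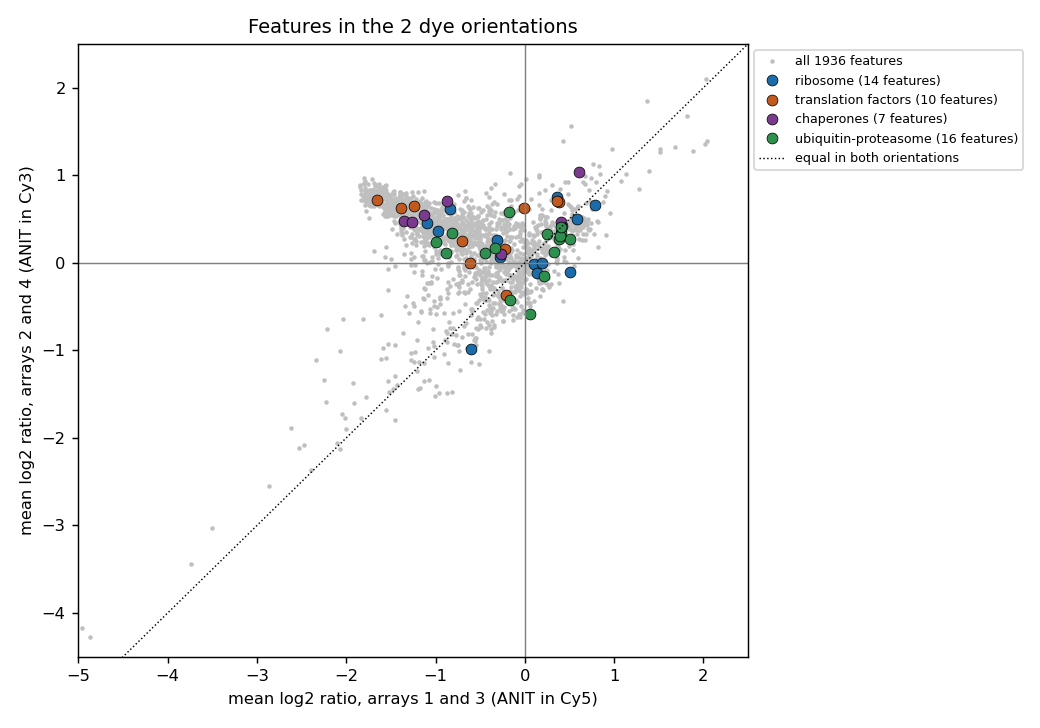
Each feature's mean log2 ratio (ANIT over olive oil) on arrays 1 and 3 (ANIT in Cy5) against that on arrays 2 and 4 (ANIT in Cy3), with all 1936 features in grey and the 47 features of the 4 classes in colour. The coloured points farthest to the left that lie above 0 on the vertical axis include features of Eif2s1, Eif5 and Hspb6, and the features above 0 in both orientations lie at the upper right.

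Other genes of the same systems were taken from lists of related genes. Of the 29 genes in the lists on ribosome assembly, cochaperones, folding and ubiquitin, 6 (20.7%) were higher by the small limit and 0 lower. The shares of all genes, given above, were 6.26% and 15%. Not counted here are the 4 kinases, none past the limit, and the pseudogene names Rpl17-ps16 (0.46, higher) and Eif5-ps6 (-0.54, lower). Of 17 cochaperone and chaperonin genes, 2 were higher by the small limit and none lower (median log2 ratio -0.026). They were Fkbp1a, a prolyl isomerase (0.69 ± 0.084), and Cct5, a chaperonin subunit (0.35 ± 0.14), and the lowest was Dnajb14 at -0.36 ± 1.24. Of 7 genes of folding in the endoplasmic reticulum, 2 were higher and none lower (median 0.10), with Creld2 at 0.68 ± 0.28 and the transcription factor Xbp1 at 0.41 ± 0.090 the higher ones and Ddit3 lowest at -0.16 ± 0.21. Npm1, a nucleolar protein of ribosome assembly, stood at 0.78 ± 0.11, and Rack1, a ribosome-bound scaffold, at -0.17 ± 0.55. Among 3 other ubiquitin genes, Sqstm1, which carries tagged proteins to autophagy, was higher at 0.49 ± 0.078 and the lowest was Cul3, a ligase scaffold, at -0.16 ± 0.53. Of the kinases left out, none of 4 passed in either direction, from Eif2ak1 (0.049 ± 0.19) to Rps6ka4 (-0.34 ± 0.90). No gene of the mitochondrial ribosome or of the aminoacyl-tRNA synthetases was found by symbol.

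The ratios hold no level, so whether the RNA carried the markers of liver could not be read from them. Of the hepatocyte markers 5 were on the array, from Apoa1 at 0.074 ± 0.20 to Cyp2e1 at -0.51 ± 0.44, which was lower by the small limit. All 9 markers of other cells found by symbol had means below 0, as had 78.8% of all genes, and 6 of the 9 were dye-shifted. The cholangiocyte genes were Ggt1 (-0.31 ± 1.11) and Spp1 (-0.37 ± 1.15), and the endothelial genes Tek (-0.22 ± 1.01), Cdh5 (-0.33 ± 0.89) and Kdr (-0.44 ± 0.48). The stellate cell and fibroblast genes were Timp1 (-0.11 ± 0.61) and Col1a1 (-0.44 ± 0.72), and the neutrophil gene was S100a9 (-0.13 ± 0.89). In these 8 the mean was smaller than the SD, which also holds the shift between orientations, and the arrays did not share 1 sign. No direction was called for them, although Kdr came close to 1 sign with -0.86, -0.066, -0.86 and 0.014 on arrays 1 to 4. The lymphocyte gene Il2rb (-0.84 ± 0.12) was the only one of the 9 lower by the small limit. No listed macrophage or red blood cell marker was found by symbol. The part of a changed cell makeup in the ratios of the 27 genes was not tested.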

How the data were processed

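Per the labels, poly(A) RNA of the mixed livers was reverse transcribed with cyanine-labelled nucleotides and hybridised to a spotted cDNA array. The authors deposited 1 log ratio per feature and array, taken as log2. The log base, the direction, the normalization, the background correction and the scanner were not given in the sources used here. Values were not centred. No intensity was at hand, so signal over background is unknown and the number of arrays (4) limits the precision.

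Genes were named through the platform annotation. Of the 47 features, 46 matched a gene ID in RefSeq (GRCr8), all with the same symbol, and Eif5 kept the annotation's name. Features were averaged per gene. Calls needed a gene mean past the limit and 1 sign on all 4 arrays. All members were named, with each array's value for the 3 highest and 3 lowest of each class, and of related lists the highest and lowest gene. Members and lists were chosen with earlier results of these data known. Promoters matched for 26 of the 27 genes, by gene ID or else symbol, with the first listed start per gene. The steps were tested on simulated data. Python 3.11.15 was used with numpy 2.4.6, pandas 2.3.3 and matplotlib 3.10.9.

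Alternatives were centring, single orientations, each array left out, other summaries of features, leaving out dye-shifted genes or Eef2k, natural logarithms and a 1.5-fold limit. Leaving out dye-shifted features was added after seeing the data, as was the dye-shift limit of -0.5.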

Additional observations from a re-analysis of the deposited data

Results flagged for a closer look

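Rpl4 was flagged because array 4 stood apart from the other 3. By gene mean its log2 ratios on arrays 1 to 4 were 0.12, 0.13, 0.12 and 0.045, so that array 4 made up 0.832 of the whole range, above Dixon's limit for 4 values. The range itself was small. It averages features that lay 1.35 apart. Of 37 sets of 4 values examined (27 genes, 4 class medians and 6 differences), 1 was flagged, and chance flags about 1 in 20.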

How the results depend on the processing

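No alternative turned the sign of a gene past the small limit. For most alternatives this was fixed in advance, because a call needed 1 sign on all 4 arrays. Only centring and another handling of the features of a gene could have turned a sign. The number of genes higher by that limit was 5, and between 3 and 7 with each array left out. Eif2b4, Psmd2 and Rpl6 remained each time, while Psmd3 and Ube2b dropped out without array 1 (3 genes) and Psmd3 without array 4. Without dye-shifted features, a filter that takes out mainly low features, it was 8 of 21 genes left (background 10.9%). Counted per feature it was 13 higher and 1 lower, and at 1.5-fold 0. With arrays centred on their medians it was 6 of 27 (background 7.41%), without Psmd2 and Psmd3 and with Hspa9, Psmb7 and Rpl3, and the ribosomal median was 0.21.

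Several class medians, their differences and the counts of genes changed when a single orientation was used. With ANIT in Cy5 alone 5 genes passed 2-fold (all lower, background 30.6%) and 13 were lower by the small limit (background 69.5%), the ribosomal median exceeded those of the chaperones by 1.02 and of the ubiquitin-proteasome genes by 0.15, and the translation factors exceeded the chaperones by 0.24. With ANIT in Cy3 alone 14 genes were higher (background 46.6%), and the medians were 0.27 (ribosome), 0.64 (translation factors) and 0.26 (ubiquitin-proteasome). The ribosomal minus the translation factor median was then -0.37, and the translation factor median exceeded those of the chaperones by 0.17 and of the ubiquitin-proteasome genes by 0.38. The translation factor minus the chaperone median was -0.17 per feature, -0.33 without dye-shifted genes and -0.16 without dye-shifted features, where the ribosomal minus the ubiquitin-proteasome median was -0.16. Without dye-shifted genes or features the ribosomal minus the chaperone median (-0.069 and -0.22) and the chaperone minus the ubiquitin-proteasome median (0.056 and 0.055) also turned sign. The chaperones left were then only Hspa9 and Hspb3. The ribosomal minus the translation factor median turned sign without dye-shifted features (-0.057). With each array left out the ribosomal median ran from -0.0053 to 0.11 and the ubiquitin-proteasome median from 0.050 to 0.087. The cause of these shifts was not tested. No paired analysis was possible because the arrays form 1 group of 1 comparison.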

Other observations

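Features named as pseudogenes were left out by the choice by symbol. Rpl17-ps16 had a log2 ratio of 0.46 ± 0.14 and was above 0 on all 4 arrays, while Rpl17 stood at -0.30 ± 0.77. Eif5-ps6 had -0.54 ± 0.16, below 0 on all 4 arrays, while Eif5 stood at -0.38 ± 1.17. On arrays 1 to 4 Rpl17-ps16 had 0.58, 0.34, 0.58 and 0.32, and Rpl17 had -0.87, 0.39, -1.06 and 0.33. They lay apart with ANIT in Cy5 but close together with ANIT in Cy3. Eif5-ps6 had -0.35, -0.66, -0.49 and -0.68, and Eif5 had -1.56, 0.55, -1.21 and 0.71. Eif5-ps6 was thus above Eif5 with ANIT in Cy5 and below it with ANIT in Cy3. The differences were not tested. RefSeq lists between 1 and 16 other loci named after each of the 9 ribosomal genes, with 16 for Rpl6 and for Rpl17.

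An antioxidant response element, searched as TGACNNNGC on both strands, was found in the promoter windows of 1 of the 8 ubiquitin-proteasome genes (Psmd3), against 12.2% of all promoters in the table. A CCAAT box (CCAAT, both strands) was found in 0 of the 9 ribosomal windows, against 37.7% of all promoters.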
